A study of Danio rerio with 6 samples.

Results

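Mature microRNAs of zebrafish primordial germ cells at 11 hours post fertilization (hpf) were compared with those of the same cell type at 6 hpf. These cells give rise to eggs and sperm. The comparison used 4 of the 6 libraries of the study, chosen by their stage: 2 libraries from the 3-somite stage at 11 hpf and 2 from the shield stage at 6 hpf. All cells were of the AB strain with no treatment named, and had been picked by green fluorescence. What drives the fluorescence, how pure the cells were and how many embryos went into a library are not stated. Nor do the labels say whether the 2 libraries of a stage came from different embryos, so the p-values rest on a spread between these libraries that could be purely technical. All 134 listed mature microRNAs were taken as members. Of these, 110 had at least 1 read at 6 or 11 hpf and 24 had none in these 4 libraries.

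A microRNA is a short RNA that is cut from a hairpin precursor and silences mRNAs that pair with its seed. The hairpin gives a pair of arms, named 5p and 3p, and usually one of them is retained as the working strand while the other is degraded. In zebrafish the miR-430 family is switched on when the zygotic genome is activated and speeds the removal of maternal mRNAs. In primordial germ cells some germ-line mRNAs, such as nanos and tdrd7, are protected from it.

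The sequences below carry the results. They were read from the deposited table in its DNA letters, and capitals mark the seed, bases 2 to 8. The 3p arms of miR-430 share a seed, and its 5p arms miR-430i-5p and miR-430a-5p share another, while the seed of miR-430b-5p differs:
miR-430a-3p: tAAGTGCTatttgttggggtag
miR-430b-3p: aAAGTGCTatcaagttggggtag
miR-430c-3p: tAAGTGCTtctctttggggtag
miR-430i-5p: aCCCTCACaaaagcactgact
miR-430a-5p: aCCCTCACaaaggcactgact
In the miR-25 and miR-92 family the 3p arms again share a seed and the 5p arms of the miR-92a hairpins share another:
miR-92a-3p: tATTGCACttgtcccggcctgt
miR-92b-3p: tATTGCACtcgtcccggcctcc
miR-25-3p: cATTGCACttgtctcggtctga
miR-363-3p: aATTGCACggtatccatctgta
miR-92a-5p: aGGTTGGGattggtagcaatgct
miR-92a-2-5p: aGGTTGGGatcggccgcaatgct
The microRNAs with the clearest differences outside these families are shown with the miR-146 pair, whose members share a seed:
miR-26a-5p: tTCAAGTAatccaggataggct
miR-724: tTAAAGGGaatttgcgactgtt
miR-146a: tGAGAACTgaattccatagatgg
miR-146b: tGAGAACTgaattccaagggtg

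The 11 hpf libraries held 45309 and 48199 microRNA reads and the 6 hpf libraries 35718 and 63849. Outside the miR-430 family the reads numbered 8983 and 7404 at 11 hpf, against 4429 and 6008 at 6 hpf. A count of 0 therefore allows a share of up to 0.0334% and 0.0405% of the reads outside miR-430 in the 11 hpf libraries, and of up to 0.0677% and 0.0499% in the 6 hpf libraries (3 reads as the floor, counting error only, since PCR copies are not separate molecules). Libraries of the same stage disagreed on low counts beyond this. At 11 hpf, 20 microRNAs had at least 10 reads in 1 library and 0 in the other, and at 6 hpf 7 did. Where both libraries of a stage were at 0, a fold was computed against the floor of 3 reads over that stage and is given as "at least".

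Each level is given as a share of all microRNA reads and, outside miR-430, as a share of the reads that do not belong to that family. Differences were tested by edgeR's quasi-likelihood test on the read counts of all 6 libraries, with Benjamini-Hochberg adjustment and a threshold of 0.05, first with TMM scaling and then on each of these scales. By TMM the median log2 difference (11 minus 6 hpf) of the 69 tested microRNAs was -0.08. It was 0.43 when libraries were scaled to all microRNA reads. Scaled to the reads outside miR-430 it was 0.00 over the 58 tested, of which 27 lay above 0 and 27 below. The 4 between them had no reads at 6 or 11 hpf, so 0.00 is their value. A small difference can therefore have opposite signs on the different scales. The reads outside miR-430 took more of all reads at 11 hpf, so most log2 differences lie lower outside miR-430 by the scaling alone. Of the 58 microRNAs tested on both share scales, 16 were higher at 11 hpf as a share of all reads and lower as a share of the reads outside miR-430, and 0 the other way round.

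Within the miR-430 family, the 5p arms were much scarcer at 11 hpf and the 3p arms took a larger share. These are bulk samples, so fewer cells with a microRNA and less of it per cell cannot be told apart. The 5p arms held 2.38% and 2.98% of all microRNA reads in the 11 hpf libraries, against 17.7% and 18.3% in the 6 hpf libraries. The 3p arms, which carry the seed that clears maternal mRNAs, held 77.8% and 81.7% at 11 hpf, against 69.9% and 72.3% at 6 hpf. There was no overlap between stages in either share, and the arms moved in opposite directions. As the family total was 80.2% and 84.6% at 11 hpf, against 87.6% and 90.6% at 6 hpf, the lower total at 11 hpf came with a higher 3p share. An exact permutation test (two-sided) of each of these shares gave p = 0.333, the smallest that 2 against 2 libraries allow. All other microRNAs together held 19.8% and 15.4% at 11 hpf, against 12.4% and 9.41% at 6 hpf.

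**Figure D1:**
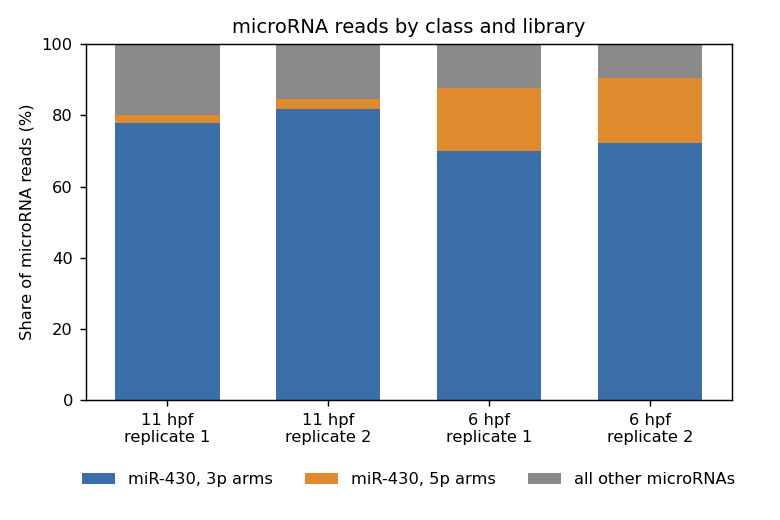
Share of microRNA reads (%, vertical axis) in each of the 4 libraries, split into miR-430 3p arms, miR-430 5p arms and all other microRNAs. The 5p arms take 2.38% and 2.98% of the bars at 11 hpf, against 17.7% and 18.3% at 6 hpf.

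Within the family, which no scaling between libraries touches, 5p arms made up 2.96% and 3.52% of miR-430 reads at 11 hpf, against 20.2% and 20.2% at 6 hpf. The difference of -16.9 percentage points lay far outside the spread between replicates, with SDs of 0.389 at 11 hpf and 0.0190 at 6 hpf (n = 2 each; exact two-sided permutation p = 0.333). The totals behind the submitters' own normalised values allow a further denominator, though what reads they count is not stated. Relative to them the 5p arms held 0.00754% and 0.0159% at 11 hpf, against 0.0602% and 0.0963% at 6 hpf. On this denominator the stages again did not overlap in the 5p arms, while they overlapped in the 3p arms, with 0.247% and 0.436% at 11 hpf, against 0.238% and 0.381% at 6 hpf. The reads outside miR-430 took 0.0629% and 0.0821% of those totals at 11 hpf, against 0.0423% and 0.0496% at 6 hpf, without overlap.

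Most 5p reads were miR-430i-5p, with 968 and 1290 reads at 11 hpf, against 5812 and 10501 at 6 hpf. Its share of all microRNA reads was 2.14% and 2.68% at 11 hpf, against 16.3% and 16.4% at 6 hpf. Its log2 difference was -2.77 as a share of all reads (SE 0.17, edgeR adjusted p = 0.000532) and -3.44 by TMM (SE 0.37, adjusted p = 0.0174). As a share of all reads the call was kept without each of the 6 libraries in turn, with adjusted p between 0.00419 and 0.0240. By TMM it was lost without 6 hpf replicate 2 (edgeR adjusted p = 0.211) and without 11 hpf replicate 1 (0.0931).

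miR-430a-5p lies 1 edit away from miR-430i-5p, so how reads were divided between these names is uncertain. It held 0.241% and 0.268% of all reads at 11 hpf, against 1.38% and 1.78% at 6 hpf. Its log2 difference was -2.64 as a share of all reads (SE 0.40, edgeR adjusted p = 0.0180) and -3.35 by TMM (SE 0.38, adjusted p = 0.0174), so it fell on both. Without a library of either stage the adjusted p of its share lay between 0.0521 and 0.151. Without 6 hpf replicate 2, 11 hpf replicate 1, 11 hpf replicate 2 or 24 hpf replicate 1 it lay between 0.0618 and 0.241 by TMM. The direction was the same in each of these fits.

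The 3p members did not pass on either scale. miR-430a-3p held 49.4% and 53.6% of all reads at 11 hpf, against 48.2% and 48.9% at 6 hpf (log2 difference 0.08, SE 0.07, edgeR adjusted p = 0.540). miR-430b-3p held 27.8% and 27.3%, against 21.3% and 23.0% at 6 hpf (0.31, SE 0.12, edgeR adjusted p = 0.222). miR-430c-3p held 0.600% and 0.801%, against 0.358% and 0.398% at 6 hpf (0.89, SE 0.39, edgeR adjusted p = 0.279). In all 3 the 11 hpf libraries lay above the 6 hpf libraries in their share of all reads, whereas by TMM miR-430a-3p and miR-430b-3p stood at -0.60 and -0.38. Of the remaining names, miR-430b-5p was read in a single library of each stage, 15 reads at 11 hpf and 31 at 6 hpf, and miR-430i-3p had 1 read in all.

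Over all microRNAs, gains in mean share summed to 16.9 percentage points of all microRNA reads, and losses to the same amount. miR-430i-5p accounted for -14.0 points and miR-430a-5p for -1.33. Gains were led by miR-430b-3p with 5.36 points, miR-430a-3p with 2.92, miR-26a-5p with 2.73 and miR-92a-3p with 2.14. Thus the 5p arms of miR-430 held nearly the whole loss, and the gain was spread over members and non-members of the family.

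Outside miR-430, miR-26a-5p, found in many tissues, and miR-92a-3p, from a cluster tied to proliferation, were the most abundant. Together they took 48.6% and 55.2% of the reads outside miR-430 at 11 hpf, against 40.1% and 36.1% at 6 hpf. Names whose listed sequence begins with T, these 2 among them, took 85.2% and 82.3% of these reads at 11 hpf, against 72.2% and 75.6% at 6 hpf. The effective number of microRNAs outside miR-430, the exponential of the Shannon entropy, which counts evenly shared names, was 15.6 and 13.6 at 11 hpf, against 18.2 and 18.0 at 6 hpf. It was lower in both 11 hpf libraries (exact two-sided permutation p = 0.333, the smallest possible). Gains in mean share outside miR-430 summed to 23.3 percentage points, of which miR-26a-5p held 10.1, miR-92a-3p 3.79, miR-92b-3p 1.28 and miR-25-3p 1.20. Losses were led by miR-92a-5p at -5.45 points and miR-146a at -5.04.

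miR-26a-5p had 2168 and 1844 reads at 11 hpf, against 624 and 892 at 6 hpf. It took 4.78% and 3.83% of all microRNA reads at 11 hpf, against 1.75% and 1.40% at 6 hpf. It took 24.1% and 24.9% of the reads outside miR-430 at 11 hpf, against 14.1% and 14.8% at 6 hpf. Libraries of a stage nearly coincided on the scale outside miR-430, at 24.5% ± 0.545 at 11 hpf and 14.5% ± 0.536 at 6 hpf (SD, n = 2 each). miR-26a-5p rose by 1.45 on the log2 scale as a share of all reads (SE 0.25, edgeR adjusted p = 0.0281) and by 0.76 outside miR-430 (SE 0.08, edgeR adjusted p = 0.0112). By TMM it did not pass (0.79, SE 0.14, edgeR adjusted p = 0.0530). Outside miR-430 the call was lost without either 6 hpf library (adjusted p = 0.141 without replicate 1 and 0.0797 without replicate 2). As a share of all reads it was lost without any library of the 2 stages, with adjusted p between 0.0521 and 0.224.

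miR-92a-3p did not pass on any of the 3 scales. It took 4.85% and 4.66% of all microRNA reads at 11 hpf, against 3.23% and 1.995% at 6 hpf (log2 difference 0.87, SE 0.27, edgeR adjusted p = 0.174). Outside miR-430 it took 24.5% and 30.3% at 11 hpf, against 26.0% and 21.2% at 6 hpf, so that the stages overlapped (0.21, SE 0.16, edgeR adjusted p = 0.558).

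Its close relative miR-92b-3p rose on each scale. It had 123 and 93 reads at 11 hpf, against 1 and 2 at 6 hpf. These are 0.271% and 0.193% of all reads at 11 hpf, against 0.00280% and 0.00313% at 6 hpf, and 1.37% and 1.26% of the reads outside miR-430 at 11 hpf, against 0.0226% and 0.0333% at 6 hpf. The libraries lay far apart between stages and close together within them. As it rests on 3 reads at 6 hpf, its fold is given with an exact 95% counting interval: 76.7-fold as a share of all reads (25.9 to 375) and 45.9-fold outside miR-430 (15.5 to 224). The edgeR adjusted p was 0.00298 as a share of all reads, 0.00238 outside miR-430 and 0.00546 by TMM. Outside miR-430 it passed without each of the 6 libraries in turn. As a share of all reads it was lost without 6 hpf replicate 1 (adjusted p = 0.0715) and without 6 hpf replicate 2 (0.0828), and by TMM without 6 hpf replicate 2 (0.156).

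The 5p arms from miR-92a hairpins, in contrast, had few or no reads at 11 hpf. miR-92a-5p had 28 and 1 reads at 11 hpf, against 273 and 304 at 6 hpf, which is 0.312% and 0.0135% of the reads outside miR-430 at 11 hpf, against 6.16% and 5.06% at 6 hpf. The 11 hpf libraries differed from each other more than 10-fold, and neither came near the 6 hpf libraries. It did not pass on the 3 scales (log2 difference -5.08, SE 1.32, edgeR adjusted p = 0.140 outside miR-430; adjusted p = 0.193 by TMM and as a share of all reads). With DESeq2, another test on the counts of all 6 libraries, it passed (log2 difference -4.91, SE 1.27, DESeq2 adjusted p = 0.00135), so its call depends on the test used. Outside miR-430 its log2 difference was -8.60 without 11 hpf replicate 1 and -4.17 without 11 hpf replicate 2, each with a single 11 hpf library left. miR-92a-2-5p had 0 reads in both 11 hpf libraries, against 31 and 65 at 6 hpf, which is at least 50.2-fold lower outside miR-430 and at least 30.1-fold lower as a share of all reads. It did not pass either (edgeR adjusted p = 0.110 and 0.0656).

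**Figure D2:**
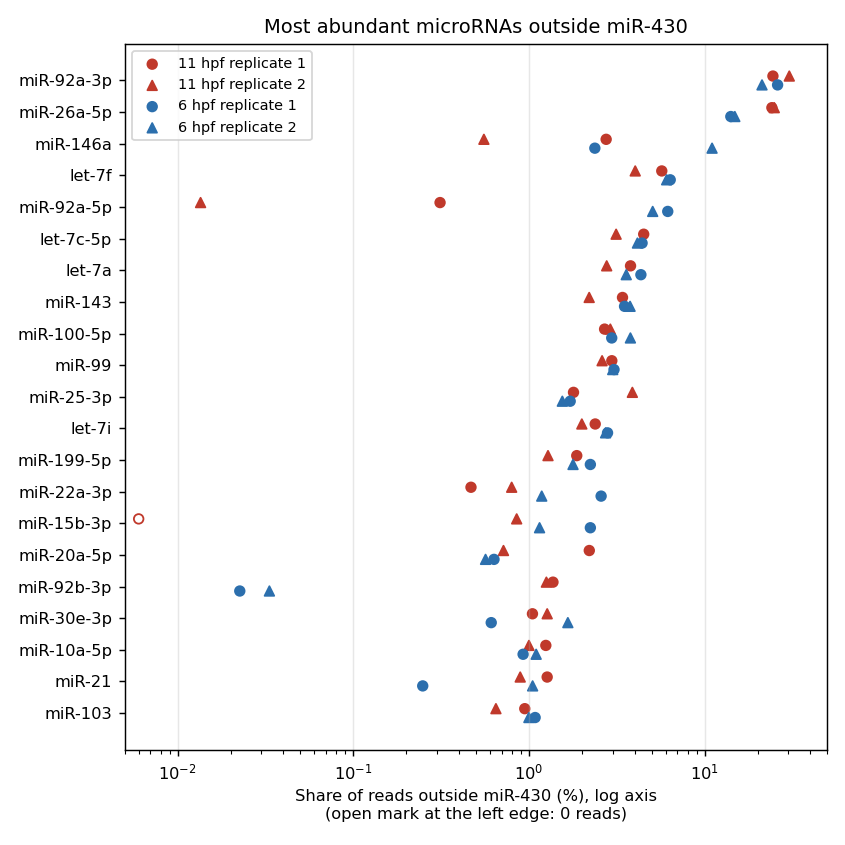
Share of the reads outside miR-430 (%, logarithmic horizontal axis) of the 21 most abundant microRNAs outside the family, 1 mark per library, with 11 hpf in red above 6 hpf in blue and an open mark for 0 reads. miR-26a-5p stands at 24.1% and 24.9% at 11 hpf, against 14.1% and 14.8% at 6 hpf, and miR-92a-5p and miR-92b-3p separate the stages in opposite directions.

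miR-724 was the other microRNA past the threshold by TMM. It had 0 reads in both 11 hpf libraries, against 14 and 13 at 6 hpf, which is at least 14.1-fold lower outside miR-430 and at least 8.45-fold lower as a share of all reads. Its edgeR adjusted p was 0.0409 by TMM, 0.0451 outside miR-430 and 0.0629 as a share of all reads. It was lost without any 1 of the 6 libraries, with adjusted p between 0.0556 and 0.241 by TMM and between 0.0598 and 0.254 outside miR-430.

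In all, 4 of 69 tested microRNAs passed by TMM, 5.80% of those tested: 1 rose, miR-92b-3p, and 3 fell, miR-430i-5p, miR-430a-5p and miR-724. As a share of all reads 4 of 69 passed, again 5.80%, with miR-92b-3p and miR-26a-5p higher (2.90%) and the same miR-430 5p arms lower (2.90%). Outside miR-430 3 of 58 passed, 5.17%, with miR-92b-3p and miR-26a-5p higher (3.45%) and miR-724 lower (1.72%). An unadjusted p under 0.05 was reached by 9, 14 and 7 microRNAs on these scales, which is 13.0%, 20.3% and 12.1% of those tested. When only the 4 libraries of the 2 stages entered the fit, 0 passed by TMM, with 8 at an unadjusted p under 0.05. As shares of all reads the same 4 then passed, and outside miR-430 miR-26a-5p and miR-92b-3p passed.

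Of the 69, 27 had 11 and 6 hpf libraries that did not overlap by TMM (39.1%), 13 higher (18.8%) and 14 lower (20.3%). As shares of all reads 25 were higher (36.2%) and 7 lower (10.1%) without overlap, 46.4% in all. Outside miR-430 10 of 58 were higher (17.2%) and 16 lower (27.6%), 44.8% in all. Non-overlap alone is weak evidence, as its exact two-sided permutation p is 0.333, the smallest possible. A microRNA without any difference between stages would show it with a probability of up to 0.333. The 39.1% to 46.4% seen here lay above this, but whether by more than chance was not tested. The names listed next are therefore not calls by this criterion. Of the 58 tested on both share scales, 10 were higher and 5 lower on both. Those higher on both were miR-92b-3p, miR-26a-5p, miR-25-3p, miR-20a-5p, miR-19b-3p, miR-30d, miR-10b-5p, miR-146b, miR-183-5p and miR-2189. Those lower on both were miR-92a-5p, miR-92a-2-5p, miR-724, miR-130c-5p and miR-199-3p. Of these, miR-199-3p had 16 and 16 reads at 11 hpf, against 13 and 24 at 6 hpf. Its shares of all reads, 0.0353% and 0.0332% against 0.0364% and 0.0376%, lay so close that their order is uncertain. Among the higher, miR-2189 had 1 and 32 reads at 11 hpf, against 0 in both 6 hpf libraries. miR-183-5p had 40 and 3 at 11 hpf, against 1 and 0 at 6 hpf. Their lower 11 hpf shares, 0.0111% and 0.0405% outside miR-430, lie below what a 0 at 6 hpf allows, so their order is uncertain. For miR-100-5p and miR-99, which differ by 1 base edit, both 11 hpf libraries lay above the 6 hpf libraries as a share of all reads and below them outside miR-430.

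Several of these non-overlapping microRNAs did not pass although their reads were numerous. miR-25-3p, which shares the seed of miR-92a-3p, took 1.79% and 3.88% of the reads outside miR-430 at 11 hpf, against 1.72% and 1.55% at 6 hpf (log2 difference 0.80, SE 0.54, edgeR adjusted p = 0.548). miR-20a-5p of the miR-17-92 cluster took 2.20% and 0.716%, against 0.632% and 0.566% at 6 hpf (1.29, SE 0.60, edgeR adjusted p = 0.523). In both, 1 library at 11 hpf held most of the difference, replicate 2 for miR-25-3p and replicate 1 for miR-20a-5p. miR-130c-5p had 0 and 11 reads at 11 hpf, against 53 and 45 at 6 hpf (edgeR adjusted p = 0.548).

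miR-22a-3p, broadly expressed, was 1 of the 5 with an unadjusted p under 0.05 by TMM that did not pass. It took 0.468% and 0.797% of the reads outside miR-430 at 11 hpf, against 2.57% and 1.18% at 6 hpf. Its log2 difference on this scale was -1.57 (SE 0.57, edgeR adjusted p = 0.370). As a share of all reads it took 0.0927% and 0.122%, against 0.319% and 0.111% at 6 hpf, so the stages overlapped. The others were miR-26a-5p, miR-92a-5p, miR-92a-2-5p and miR-146b. miR-146b had 32 and 11 reads at 11 hpf, against 0 in both 6 hpf libraries. It was at least 9.13-fold higher outside miR-430 and at least 15.3-fold higher as a share of all reads (edgeR adjusted p = 0.110 and 0.0656). With DESeq2 miR-146b passed (DESeq2 adjusted p = 0.00981), so its call depends on the test used. Its seed partner miR-146a, a regulator of NF-kB signalling, had 247 and 41 reads at 11 hpf, against 105 and 662 at 6 hpf, so its stages overlapped.

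The let-7 family, known for its role in developmental timing and differentiation, had opposite signs on the share scales in let-7a, let-7b, let-7c-5p, let-7f and let-7i, but not in let-7g, the remaining tested member. let-7f took 1.13% and 0.618% of all reads at 11 hpf, against 0.790% and 0.572% at 6 hpf, but 5.70% and 4.02% of the reads outside miR-430 at 11 hpf, against 6.37% and 6.08% at 6 hpf. Neither difference passed (log2 difference 0.36, SE 0.45, edgeR adjusted p = 0.685 and -0.36, SE 0.21, edgeR adjusted p = 0.548). let-7a, let-7b, let-7c-5p and let-7i likewise had differences of 0.43, 0.30, 0.55 and 0.37 as shares of all reads and of -0.27, -0.41, -0.16 and -0.34 outside miR-430, none passing. let-7g had 0 and 127 reads at 11 hpf, against 0 in both 6 hpf libraries, so it could only lie above 0 on both scales. It did not pass (edgeR adjusted p = 0.233 as a share of all reads and 0.547 outside miR-430), and all its reads came from 11 hpf replicate 2. Opposite signs were also seen for miR-143, a smooth muscle microRNA, at 0.36 and -0.37, for miR-199-5p at 0.35 and -0.35, for miR-103 at 0.33 and -0.38, and for miR-100-5p at 0.44 and -0.27. let-7a, let-7c-5p and let-7f differ by 1 or 2 base edits, so reads may be divided between these names with error.

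**Figure D3:**
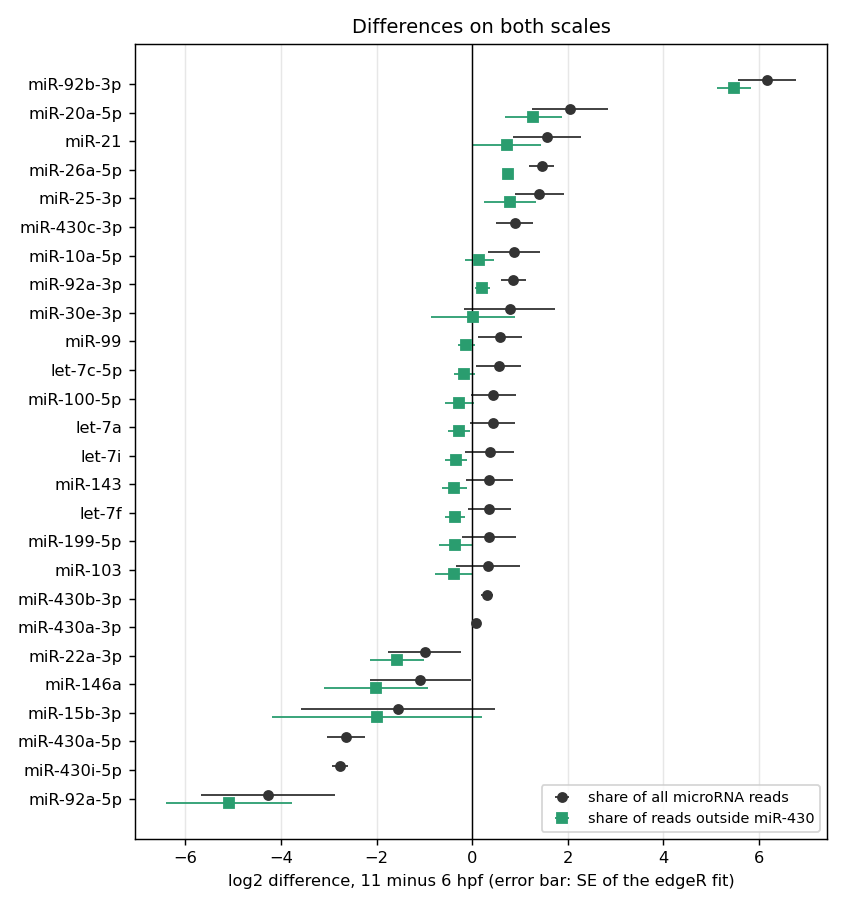
log2 difference between 11 and 6 hpf (horizontal axis, 11 minus 6 hpf, error bars the SE of the edgeR fit) as a share of all microRNA reads (circles) and as a share of the reads outside miR-430 (squares), for the most abundant microRNAs and those with a low p that had reads at both stages. let-7f lies at 0.36 and -0.36 on these scales, while miR-26a-5p lies above 0 on both at 1.45 and 0.76.

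Among the 21 microRNAs outside miR-430 that reached 0.5% of all reads or 1% of the reads outside the family at 11 or 6 hpf, 17 were above 0 in log2 difference as shares of all reads and 8 outside miR-430. In 4 of them the 11 hpf libraries were higher on both scales without overlap, and in 1, miR-92a-5p, lower on both. The 4 were miR-26a-5p, miR-92b-3p, miR-25-3p and miR-20a-5p. Of the 10 most abundant names outside miR-430 at each stage, 8 were shared. miR-25-3p and let-7i were among the 10 at 11 hpf, where miR-146a and miR-92a-5p had been at 6 hpf. Of those not yet described, miR-99 took 2.96% and 2.61% of the reads outside miR-430 at 11 hpf, against 3.05% and 3.00% at 6 hpf. miR-10a-5p took 1.25% and 0.999% of the reads outside miR-430 at 11 hpf, against 0.926% and 1.10% at 6 hpf. miR-30e-3p took 1.05% and 1.27%, against 0.610% and 1.66% at 6 hpf, miR-21 took 1.27% and 0.891%, against 0.248% and 1.05% at 6 hpf, and miR-15b-3p took 0 and 0.851%, against 2.24% and 1.15% at 6 hpf.

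If each read was counted under 1 name, which is not stated, summing names with the same seed removes the uncertain division between near-identical names that share a seed. The 134 names fell into 92 seed groups, 25 of them with more than 1 name. By TMM, 0 of 47 tested groups passed (0.00%) and 5 reached an unadjusted p under 0.05 (10.6%), while 4 passed with DESeq2. As shares of all reads 2 of 47 passed (4.26%). The CCCTCAC seed of miR-430a-5p and miR-430i-5p had a log2 difference of -2.75 and fell (SE 0.18, edgeR adjusted p = 0.000200), and the TCAAGTA seed of miR-26a-5p and miR-26b rose by 1.45 (SE 0.26, edgeR adjusted p = 0.0298). Outside miR-430 2 of 40 passed (5.0%), the TCAAGTA seed, which rose by 0.76 (SE 0.08, edgeR adjusted p = 0.0156), and the TAAAGGG seed of miR-724, which fell (edgeR adjusted p = 0.0379).

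Other seeds that hold many reads did not pass. The miR-430 3p seed AAGTGCT held 79.7% ± 2.73 of all reads at 11 hpf and 71.1% ± 1.67 at 6 hpf (SD, n = 2 each) and did not pass (log2 difference 0.17, SE 0.08, edgeR adjusted p = 0.357). The ATTGCAC seed of miR-25-3p, miR-92a-3p, miR-92b-3p and miR-363-3p held 28.1% and 37.0% of the reads outside miR-430 at 11 hpf, against 27.8% and 23.7% at 6 hpf (0.34, SE 0.18, edgeR adjusted p = 0.483). The GGTTGGG seed of the miR-92a 5p arms held 0.312% and 0.0135%, against 6.86% and 6.14% at 6 hpf (-5.30, SE 1.38, edgeR adjusted p = 0.200). The let-7 seed GAGGTAG held 17.2% and 14.2% of the reads outside miR-430 at 11 hpf, against 18.9% and 17.4% at 6 hpf (-0.21, SE 0.13, edgeR adjusted p = 0.534).

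The share of a hairpin's reads that come from its 5p arm is a ratio within a library, so it is the same on every scale. Of 21 hairpin names with both arms listed, 14 had at least 50 reads over the 4 libraries. The 5p share was lower in both 11 hpf libraries for 2 of them and higher for 0. These were miR-430a, with 0.485% and 0.497% at 11 hpf against 2.78% and 3.52% at 6 hpf, and miR-92a, with 1.26% and 0.0445% at 11 hpf against 19.2% and 19.3% at 6 hpf. At 6 hpf the miR-92a share was 19.2% (95% Wilson interval 17.2 to 21.3) in replicate 1 and 19.3% (17.4 to 21.3) in replicate 2, and at 11 hpf 1.26% (0.872 to 1.81) and 0.0445% (0.00786 to 0.252). The interval covers counting error only, and the exact two-sided permutation p was 0.333 for both hairpins, the smallest possible. In miR-92a the 3p arm was measured with 2198 and 2245 reads at 11 hpf, against 1152 and 1274 at 6 hpf. Arms were paired by name, so the miR-92a share leaves out miR-92a-2-5p and may not be that of a single hairpin. With miR-92a-2-5p the 5p reads at 6 hpf were 304 and 369, against 273 and 304 for miR-92a-5p alone. At 11 hpf miR-92a-2-5p had no reads. miR-430a and miR-430i lie 1 edit apart in either arm, so the share of each alone depends on how reads were divided. For both together the 5p share was 4.59% and 5.21% at 11 hpf, against 26.8% and 27.2% at 6 hpf.

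**Figure D4:**
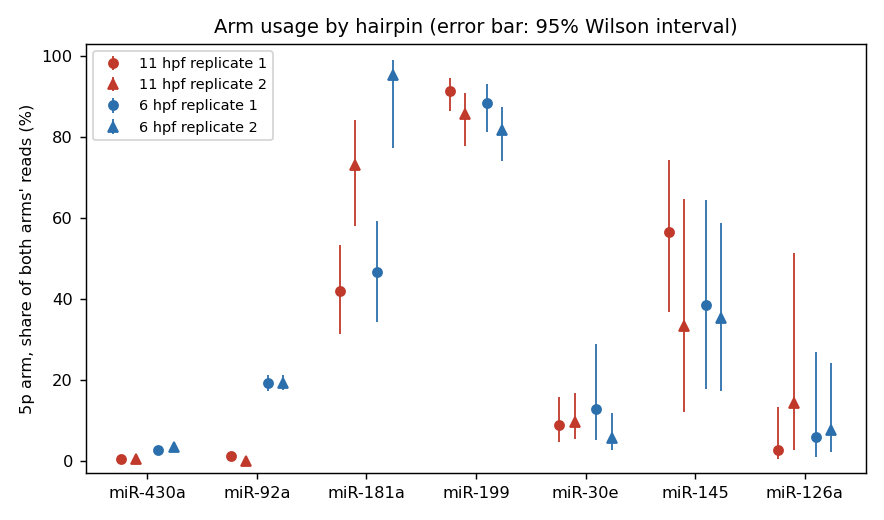
5p arm as a share of the reads of both arms (%, vertical axis), with arms paired by name, for 7 hairpin names. Each library has 1 mark with its 95% Wilson interval, 11 hpf in red and 6 hpf in blue. miR-92a stands at 1.26% and 0.0445% at 11 hpf, against 19.2% and 19.3% at 6 hpf, while the stages of miR-181a, miR-199, miR-30e, miR-145 and miR-126a overlap.

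The other 12 hairpins overlapped between stages or lacked reads in a library. miR-199, a mesenchyme hairpin that keeps mostly its 5p arm, stood at 91.3% and 85.6% at 11 hpf, against 88.4% and 81.7% at 6 hpf. miR-30e, where the 3p arm was the more abundant, stood at 8.74% and 9.62%, against 12.9% and 5.66% at 6 hpf. miR-181a spread widely at both stages, with 41.9% and 73.2% at 11 hpf against 46.6% and 95.2% at 6 hpf. In 11 hpf replicate 2 its 3p arm was counted with 11 reads, while the 3p seed CCATCGA held 36. The others were miR-181a-5-3p, 2 edits from miR-181a-3p, so the spread at 11 hpf depends on how reads were divided between names. miR-145 and miR-126a rested on 62 and 89 reads in all and overlapped too. In miR-26a, let-7c, miR-20a and miR-430i the 5p arm held at least 96.1% in every library, and in miR-430b at most 0.210%. The miR-26a pair leaves out miR-26a-2-3p, a separate name that had 33 reads in 6 hpf replicate 1 and none in the other libraries compared. miR-725 and miR-222a had no reads of either arm in 1 library of a stage, so no difference was formed for them.

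Outside miR-430, 74 and 76 microRNAs had at least 1 read at 11 hpf, against 66 and 67 at 6 hpf. When every library was brought to the 4429 reads of the smallest, by the exact expectation, 64.4 and 70.2 were left at 11 hpf, against 66.0 and 62.6 at 6 hpf, and the stages overlapped (exact two-sided permutation p = 0.667). With miR-430 counted and depth equalised over all microRNA reads, the numbers did not overlap, at 76.3 and 78.6 at 11 hpf against 71.0 and 64.8 at 6 hpf. The 11 hpf libraries had more reads outside miR-430, as given above.

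Of the 110 names with reads, 74 were read at both stages, 25 at 11 hpf only and 11 at 6 hpf only, and 52 were read in all 4 libraries. Of the 25, 22 rested on a single 11 hpf library, and of the 11, 8 rested on a single 6 hpf library. The names read in both 11 hpf libraries and in no 6 hpf library were miR-146b, miR-2189 and miR-140-5p, with 43, 33 and 2 reads. Those read in both 6 hpf libraries and in no 11 hpf library were miR-92a-2-5p, miR-724 and miR-196a-5p, with 96, 27 and 3 reads. The names in a single library held between 1 and 127 reads, the most being let-7g with 127 reads in 11 hpf replicate 2 and 0 in replicate 1. Of the 134 names 65 were not tested, and none of these had more than 74 reads over the 4 libraries.

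By groups of known roles, calls were few. Of 6 tested miR-430 members 2 fell by TMM, against 4.35% of all tested microRNAs. The family's median log2 difference was -1.04 by TMM and -0.29 as a share of all reads, over 5p and 3p arms together. In the miR-17-92 group and its paralogues, linked to proliferation, 1 of 8 tested members rose, miR-92b-3p, against 1.45% of all, with a median of 0.77 by TMM, 1.38 as a share of all reads and 0.76 outside miR-430. Together they took 31.0% and 37.9% of the reads outside miR-430 at 11 hpf, against 35.4% and 30.4% at 6 hpf, so the stages overlapped in the total. No tested member of the other lists passed by TMM, and on the share scales miR-26a-5p, of the broadly expressed list, rose.

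The medians outside miR-430, beside 0.00 for all tested, were -0.30 for 6 tested members of the let-7 and miR-98 list, -0.14 for 4 of the miR-99, miR-100 and miR-125 list and 0.15 for 3 of the Hox-cluster microRNAs of the miR-10 and miR-196 list. They were 0.00 for 3 of the miR-15, miR-16 and miR-457 list, 0.29 for 3 of the miR-30 family, -0.18 for 3 of the miR-181 family and 0.00 for 7 broadly expressed microRNAs. Each 0.00, also that for all tested, is the value of tested names without reads at 6 or 11 hpf, so it does not measure a lack of change. For the 2 members of the miR-146 family a median of the fitted values has little meaning, since miR-146b had 0 reads at 6 hpf. The Hox-cluster list took 1.85% and 1.55% of the reads outside miR-430 at 11 hpf, against 1.49% and 1.45% at 6 hpf, with miR-10b-5p at 0.601% and 0.554% against 0.519% and 0.333% at 6 hpf. The broadly expressed list took 27.0% and 27.7% at 11 hpf, against 19.0% and 18.9% at 6 hpf, and miR-26a-5p supplied most of it. The miR-15, miR-16 and miR-457 list had 0 reads in 11 hpf replicate 1 and 120 in replicate 2, against 112 and 69 at 6 hpf.

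Markers of other cell types were read at both stages, those of mesenchyme with the most reads, and their part in the differences above was not tested. All 8 listed mesenchyme names had reads and together took 5.80% and 3.90% of the reads outside miR-430 at 11 hpf, against 6.39% and 6.24% at 6 hpf. In the neural list 5 of 9 names had reads, at 0.690% and 0.648% at 11 hpf against 1.15% and 0.682% at 6 hpf, while miR-124-3p, the defining neuronal microRNA, was at 0 in all 4 libraries. In the muscle list 2 of 3 had reads, at 0.234% and 0.230%, against 0.226% and 0.166% at 6 hpf, with miR-499-5p at 0 and miR-206-3p at 1 read. Outside miR-430 the muscle total was thus slightly higher in both 11 hpf libraries, the mesenchyme total lower, and the neural total overlapped. The muscle order rests on 21 and 17 reads at 11 hpf, against 10 and 10 at 6 hpf. As a share of all reads the mesenchyme total overlapped, at 1.15% and 0.600% at 11 hpf, against 0.792% and 0.587% at 6 hpf. On that scale muscle was again higher and neural overlapped.

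All 3 names of the vessel and blood list had reads. Of the reads outside miR-430 they took 0.445% and 0.0945% at 11 hpf, against 0.384% and 0.449% at 6 hpf. As a share of all reads they took 0.0883% and 0.0145%, against 0.0476% and 0.0423%, so the stages overlapped on both scales. The 3 epithelial names took 0.134% and 0.108% of the reads outside miR-430 at 11 hpf, against 0.406% and 0.982% at 6 hpf. Their shares of all reads were 0.0265% and 0.0166%, against 0.0504% and 0.0924% at 6 hpf. The 4 names of liver and gut took 0.0223% and 0.257% outside miR-430, against 0.339% and 0.0333% at 6 hpf. As a share of all reads they took 0.00441% and 0.0394%, against 0.0420% and 0.00313% at 6 hpf. In the sensory organ list 2 of 3 names had reads, and miR-182-5p was at 0. The list took 0.479% and 0.0945% of the reads outside miR-430 at 11 hpf, against 0.0226% and 0.0333% at 6 hpf. As a share of all reads it was also higher at 11 hpf, at 0.0949% and 0.0145%, against 0.00280% and 0.00313%. This higher level came from miR-183-5p, with 40 and 3 reads at 11 hpf against 1 and 0 at 6 hpf (edgeR adjusted p = 0.456 outside miR-430). Not all names of these 7 lists were tested. The tests covered 6 mesenchyme names, 3 neural, 2 muscle, 2 sensory organ, 1 vessel and blood, 1 epithelial and 0 of liver and gut. None of these tested names passed. The labels give the tissue as gonad, and miR-202, the gonad microRNA chosen as a marker, was not analysed here.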

How the data were processed

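Read counts per mature microRNA and library were deposited by the authors, and the whole numbers show no scaling. A second deposited set of values, in RPM, equals each count multiplied by a single factor for its library, and served only to give the library totals it implies (9019179 to 14289534 in the 4 libraries compared). The submitters' processing notes name Bowtie 1.0.0-5 and danRer11. No source used here gives the microRNA annotation or the treatment of reads that match several names.

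Counts were filtered by filterByExpr (minimum count 10) and tested with edgeR 4.0.16 in R 4.3.3 over all 6 libraries with stage as the term, which leaves 3 residual degrees of freedom. The SE is the size of the log2 difference divided by the square root of F. Share tests used exact permutation in SciPy 1.17.1. For the scale outside miR-430 the family was removed before the filter. Members, tests and the 18 microRNA lists were chosen with earlier results of these data known. Named were microRNAs past the threshold or with an unadjusted p under 0.05, those at 0.5% of all reads or 1% outside miR-430, miR-430 members, up to 10 non-overlapping differences each way, hairpins with 50 reads, and up to 3 members per list. Alternatives covered scaling, filter, DESeq2 1.42.0, the replicate number, and left-out libraries, where a lone library was assumed to vary like the other stages. Fits were tested on simulated data. Figures were drawn with matplotlib 3.10.9.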

Additional observations from a re-analysis of the deposited data

How the results depend on the processing

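With 2 libraries a stage, calls depended on settings. The count of changed microRNAs, 4 by TMM, was 1 with miR-430 left out and TMM, 7 with DESeq2, 0 with the 6 and 11 hpf libraries only and 1 with the authors' library totals, and miR-92b-3p was the call kept in both cases of 1; RLE gave 5, no filter 3 and the stricter filter (a mean of 100 reads in 1 stage) 4. Leaving out 1 library gave 0 (without 6 hpf replicate 2) to 3. The share-scale counts, from alternatives chosen after seeing the data, without 1 library were 1 to 4 of all reads (4 with every library) and 1 to 4 outside miR-430 (3 with every library); with only the 6 and 11 hpf libraries they were 4 of all reads and 2 outside miR-430. Seed groups, 0 by TMM, numbered 2 with RLE, 2 on each share scale, 4 with DESeq2, 1 without a filter, 2 with the stricter filter, and 0 to 3 without 1 library. The miR-430 share, -6.69 points, reversed to 8.60 for the 3p arms alone, because the 5p arms hold the loss; it was -0.0345 points of the authors' library totals and -8.92 to -4.46 without 1 library. The 5p share of miR-430, -16.9 points, was -22.1 for miR-430a and miR-430i and -17.2 to -16.6 without 1 library. The gain in rarefied detection, 3.00, was 8.50 without rarefaction, 9.56 over all microRNAs and 0.124 to 5.87 without 1 library. Among the values of single microRNAs under these alternatives, 710 kept direction and side of the threshold, 24 lost a call, 9 gained one and 109 changed the sign of a value that was not called; no called value changed sign. With the replicate number as a replicate block 3 microRNAs and 0 seed groups passed, and miR-724 was lost. Differences between replicates 1 and 2 correlated at 0.14 between 6 and 11 hpf. The values were 0.06 between 6 and 24 hpf and -0.24 between 11 and 24 hpf. A stage has a single such difference, so these values cannot decide whether same-numbered libraries belong together. The cause of these shifts was not tested.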
